A study of Mus musculus with 9 samples.

Results

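miR-22 has 1 of the highest count levels among the microRNA rows of these mouse left ventricle libraries. Its members are the rows of the deposited count table whose name starts with mmu-miR-22-, which are the 2 arms of 1 hairpin, mmu-miR-22-3p and mmu-miR-22-5p. They are 2 of 621 rows, and both passed the filter on low counts, which kept 509 rows. MicroRNAs were sequenced in 9 libraries of left ventricle from 6-month-old males, all on the C57BL/6J background, with 3 libraries in each of 3 groups. The groups are non-transgenic mice (NTG), the transgenic line CaNrf2-Low (TG-Low) and the transgenic line CaNrf2-High (TG-High), and TG stands for the 6 libraries of both lines. The promoter that drives the transgene and the number of founders are not stated in the labels, and Nrf2 itself was not analysed here. Nothing in the labels ties a library to its own animal, and the p-values therefore measure only how far these samples spread, which may be technical. Library totals lay between 3620465 counts (TG-High replicate 2) and 11695744 (TG-High replicate 1). miR-22 was chosen by its count level and its higher counts in both transgenic lines than in NTG, so its levels and its differences from NTG are described here without a test. The difference between the 2 transgenic lines and the balance of the 2 arms between them were tested.

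MicroRNAs are short RNAs cut from a hairpin and loaded into Argonaute proteins, where bases 2 to 8 (the seed) pair with messenger RNAs and lower their output. One arm of the hairpin, the guide, is mostly kept and the other mostly degraded. In mice miR-22 is enriched in heart and skeletal muscle and rises during growth of heart muscle cells, and mice without it respond poorly to pressure overload. Its known targets in the mouse heart include Hdac4, a deacetylase that holds back muscle genes, and Sirt1, a deacetylase tied to stress resistance. Nrf2, encoded by Nfe2l2, is the transcription factor that switches on antioxidant genes. Target transcripts were not analysed here.

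The sequences below are those of the 2 arms, with the seed in capitals, since the seed sets which messenger RNAs each arm can pair with. They come from RefSeq (GRCm38.p6).
miR-22-3p: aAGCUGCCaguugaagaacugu
miR-22-5p: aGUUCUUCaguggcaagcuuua
The hairpin that carries both, with the 5p arm and then the 3p arm in capitals, shows their places on either side of the loop.
Mir22 hairpin: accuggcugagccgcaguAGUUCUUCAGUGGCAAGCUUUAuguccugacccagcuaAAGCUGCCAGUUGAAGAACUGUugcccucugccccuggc
The arms occupy bases 19 to 40 and 57 to 78 of the 95 bases. The hairpin lies at chr11:75463716-75463810 on the plus strand of GRCm38. It falls whole within exon 2 of both annotated transcripts of the noncoding host gene Mir22hg, and within exon 2 of 1 transcript of the protein-coding gene Tlcd2 (GENCODE M21). Among 1679 mature sequences of the RefSeq table, 0 others share either 7-base seed. Each arm has 1 locus there, and 0 other rows of the count table repeat the counts of either arm. The antioxidant response element that Nrf2 binds was searched as TGACNNNGC on both strands of the Mir22hg promoter (250 bases before to 50 after the start, chr11:75461289-75461588, plus strand). It was found in 0 of 1 Mir22hg windows and in 12.4% of all 32851 promoter windows of the same length. This says only that these letters are not in this window.

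miR-22-3p, the guide arm, was at 46067, 49721 and 48556 counts per 1e6 (CPM, with the libraries scaled by trimmed mean of M values, TMM) in NTG replicates 0, 1 and 2. It was at 77645, 77307 and 66283 CPM in TG-Low, and at 80101, 65836 and 82893 CPM in TG-High. The NTG libraries lay close together, all 6 transgenic libraries lay above them, and the 2 transgenic lines overlapped. miR-22-5p, the minor arm, was at 369.5, 462 and 414 CPM in NTG, at 682, 707 and 618 CPM in TG-Low and at 777, 684 and 757 CPM in TG-High. It showed the same separation from NTG and the same overlap of the lines. Within each group the library lowest in one arm was also lowest in the other, namely NTG replicate 0, TG-Low replicate 2 and TG-High replicate 1. The arms share hairpin, library and scaling.

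**Figure D1:**
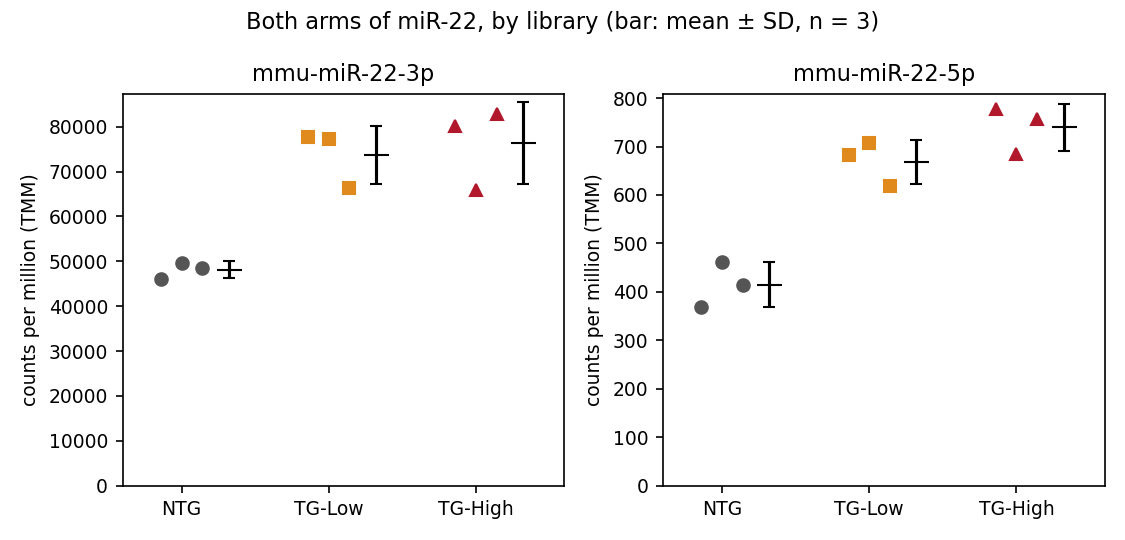
CPM (TMM) of miR-22-3p (left) and miR-22-5p (right) in each library of NTG, TG-Low and TG-High, with the mean ± SD (n = 3) beside the points. All 6 transgenic libraries lie above all 3 NTG libraries in both arms, and the transgenic lines overlap.

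The mean level of miR-22-3p was 48115 ± 1867 CPM in NTG, 73745 ± 6465 in TG-Low and 76277 ± 9149 in TG-High (SD, n = 3 each). Its spread within a group was 3.88% of the mean in NTG, 8.77% in TG-Low and 11.99% in TG-High. For miR-22-5p the means were 415 ± 46.1, 669 ± 45.6 and 739.5 ± 48.9 CPM, with spreads of 11.1%, 6.82% and 6.61%. The lowest count behind any of these values was 2696, for which the counting error is 1.93%. Averaged over the groups the spread of miR-22-3p was 8.21%, and the median over the 50 rows of at least 1000 CPM was 9.83%.

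By mean level over all libraries miR-22-3p had rank 4 of 509 rows. MicroRNAs differ in how well they enter a library, so this is an order of counts. It may also depend on how reads with several matches were treated, which the labels do not state. miR-1a-3p and miR-133a-3p, each from more than 1 hairpin gene, were at only 84.2 and 1.26 CPM in NTG. The rows above miR-22-3p were miR-126b-5p (156537 CPM) and miR-126a-3p (156533 CPM), then miR-143-3p, abundant in smooth muscle. Those miR-126 rows come from hairpins that overlap on opposite strands and had nearly equal levels, so the same reads may fill both ranks. Next below it came miR-378a-3p, a muscle miRNA from an intron of Ppargc1b, then miR-27b-3p, miR-99a-5p and miR-30a-5p. In NTG it had rank 5, behind miR-378a-3p (51602 ± 8136 CPM), and was the higher of that pair in 1 of 3 libraries, so the order of those neighbours did not hold across NTG libraries. In both transgenic lines it had rank 4 and exceeded miR-378a-3p in 3 of 3 libraries each. It stayed below miR-143-3p in every NTG and TG-Low library and exceeded it in 1 of 3 TG-High libraries, where the log2 ratio of the pair ran from -0.26 to 0.00, a near tie. The rank of miR-22-5p was 78 for NTG, 63 for TG-Low and 57 for TG-High.

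Set against NTG, miR-22-3p was 1.56-fold higher in TG, a log2 fold change of 0.64 ± 0.10 (SE, edgeR). It was 1.53-fold higher in TG-Low (0.62 ± 0.11) and 1.59-fold higher in TG-High (0.66 ± 0.11). miR-22-5p was 1.70-fold higher in TG (0.76 ± 0.12), 1.61-fold in TG-Low (0.69 ± 0.13) and 1.78-fold in TG-High (0.83 ± 0.13). Both line comparisons use the same 3 NTG libraries. Over all 509 rows the median log2 fold change was 0.01 in TG, 0.02 in TG-Low and -0.01 in TG-High. In 2 of 2 arms every TG library lay above every NTG library, where 8.06% of the tested rows did. TG-Low libraries all above NTG were seen in 58 of the 509 rows, and TG-High libraries all above NTG in 102. The size of the change was not extreme: among 509 rows the log2 fold change in TG ranked 56 from the highest for the 3p arm and 38 for the 5p arm. The authors' deposited table gives log2 fold changes of 0.63 (SE 0.10) for the 3p arm and 0.75 (SE 0.12) for the 5p arm.

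A row that holds this many counts could move with the scaling, so miR-22-3p was also set against each of the 20 most abundant other rows within a library, a ratio that no scaling changes. Against 17 of the 20, all 6 transgenic ratios lay above all 3 NTG ratios. Only the miR-22 arms were set against these rows in this way, so how often other rows separate so was not counted. The 20 ratios share miR-22-3p, which was chosen for its higher counts in both lines, so they are not 20 separate checks. The 20 other rows hold 2 pairs of overlapping rows of miR-126a and miR-126b. The 3 exceptions were miR-378a-3p, miR-148a-3p and miR-21a-5p, a stress-induced miRNA. The median difference of the log2 ratio (TG minus NTG) was 0.69. It was largest against miR-499-5p, which an intron of the myosin gene Myh7b encodes (1.23), and was -0.03 against miR-21a-5p. For miR-22-5p the groups separated against 15 of the 20, and its mean ratio was higher in TG against all 20. On CPM of the library total with no TMM scaling, miR-22-3p ranged from 46315 to 54401 in NTG and from 62471 to 83703 in TG, again without overlap. The share of all rows without overlap on that scale was not counted.

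**Figure D2:**
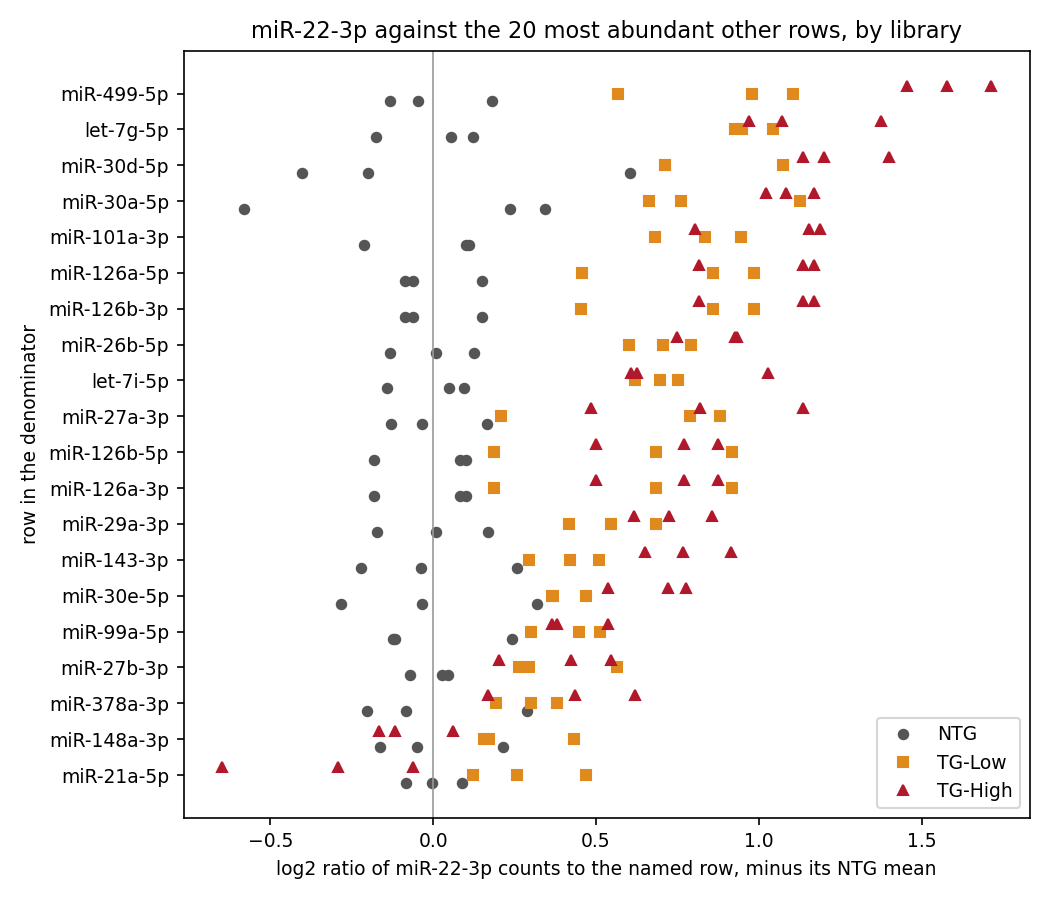
Log2 ratio of miR-22-3p counts to each of the 20 most abundant other rows (vertical axis), minus the NTG mean of that ratio (horizontal axis), for each of the 9 libraries. Transgenic libraries lie to the right of all NTG libraries in 17 rows, and overlap them for miR-378a-3p, miR-148a-3p and miR-21a-5p.

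Left ventricle holds many cell types, and in bulk RNA fewer cells of a type and less RNA per cell cannot be told apart. All 5 heart muscle marker rows had counts, and their sum in NTG lay between 65478 and 85934 CPM, in TG-Low between 80255 and 91277 and in TG-High between 73843 and 76509. miR-378a-3p (51602 ± 8136 CPM in NTG) holds most of that sum. miR-208a-3p, encoded in an intron of the myosin gene Myh6, was at 2449 ± 23.7 CPM in NTG, whereas miR-1a-3p (84.2 ± 29.9) and miR-133a-3p (1.26 ± 0.39) were low (SD, n = 3). Both of those come from more than 1 hairpin gene, and the treatment of reads with several matches is not stated in the labels. The summed level of 3 red blood cell rows (miR-144-3p, miR-144-5p and miR-451a) lay between 1552 and 2413 CPM in NTG, between 926 and 1791 in TG-Low and between 516 and 644 in TG-High. That of 5 leukocyte rows was 1617 to 1703, 1298 to 1647 and 1107 to 1158 CPM. Red blood cell and leukocyte sums in TG-High lay wholly below NTG, and in TG-Low both overlapped NTG. Within TG-Low, 1 row of each list lay wholly below NTG. These were miR-144-5p (43.2 to 98.4 CPM, against 107.9 to 151.5 in NTG) and miR-155-5p (169.9 to 218.9, against 260.1 to 341.8). The other 2 red blood cell rows and 4 leukocyte rows overlapped NTG there. The heart muscle row miR-208a-3p lay wholly above NTG in TG-Low (2874 to 2973 CPM, against 2429 to 2475). It did not pass edgeR's test (adjusted p = 0.232), and the other 4 heart muscle rows overlapped NTG there. The sums of the 2 endothelial rows (141771 to 200396 CPM over all groups), the 4 smooth muscle rows (82417 to 124869 CPM) and the 4 measured of 5 listed fibroblast rows (706 to 1066 CPM) overlapped between the groups, but miR-126a-3p and miR-143-3p hold most of the first 2 sums.

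Single marker rows moved under these sums in TG-High against NTG, where edgeR called 18.3% of all rows (8.84% higher, 9.43% lower). All 3 red blood cell rows fell, and each passed with any 1 library left out. The heart muscle row miR-499-5p fell from 21620 ± 2104 CPM in NTG to 11462 ± 1889 in TG-High (SD, n = 3). It passed edgeR's test (adjusted p = 0.00161), also in 6 of 6 such refits, while the other 4 heart muscle rows overlapped NTG. The leukocyte rows went both ways: miR-150-5p (784 ± 52.6 CPM in NTG, 372 ± 16.6 in TG-High) and miR-155-5p (309 ± 43.2 and 138 ± 10.8) fell, also in every such refit, while miR-142a-3p (159 ± 26.7 and 212 ± 22.2), miR-223-3p (72.5 ± 19.5 and 97.1 ± 8.61) and miR-142a-5p (323 ± 27.1 and 318 ± 39.1) did not pass (SD, n = 3). The fibroblast row miR-214-5p, like miR-22, had all TG-Low and all TG-High libraries above NTG, at 120 ± 18.3 CPM in NTG, 155 ± 18.7 in TG-Low and 200.3 ± 24.1 in TG-High. It rose in TG-High by edgeR's test (adjusted p = 0.0118) and did not pass in TG-Low (adjusted p = 0.273). In TG-High the fibroblast row miR-199a-3p and the leukocyte row miR-142a-3p also lay wholly above NTG. Neither passed (edgeR adjusted p = 0.0820 and 0.268), and the other 2 fibroblast rows overlapped NTG there. The endothelial row miR-126a-5p (10100 ± 1259 CPM in NTG, 7702 ± 102 in TG-High, edgeR adjusted p = 0.0447) and the smooth muscle row miR-145a-3p (1525 ± 200.01 and 1044 ± 113, edgeR adjusted p = 0.0311) fell. Those calls held in 1 of 6 and 2 of 6 refits without 1 library, that of miR-126a-5p without NTG replicate 0 alone and that of miR-145a-3p without NTG replicate 1 or TG-High replicate 2. miR-145a-5p (3030 ± 436 and 2298 ± 276 CPM) did not pass. In TG-Low against NTG 0 of the 23 tested marker rows passed edgeR's test, which called 1.57% of all rows. There 6 were at an unadjusted p under 0.05, and DESeq2 called 2. No marker row with a measurement was at 0 throughout. The part of these cell types in the level of miR-22 was not tested.

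The 2 transgenic lines were compared with each other to ask whether miR-22 differs between the Low and High line. No difference was detected in either arm. miR-22-3p was 1.03-fold as high in TG-High as in TG-Low, with a 95% interval from 0.872-fold to 1.23-fold (log2 fold change 0.05 ± 0.11 (SE), edgeR adjusted p = 0.935). miR-22-5p was 1.11-fold as high, with an interval from 0.910-fold to 1.34-fold (0.14 ± 0.13, edgeR adjusted p = 0.805). The test called 0 of the 2 arms, where it called 1.38% of the 509 rows, 7 in all (1 higher and 6 lower in TG-High). At an unadjusted p under 0.05 edgeR had 41 rows and 0 of the 2 arms, and DESeq2 called 12 rows and 0 of the 2 arms. TG-High libraries all above TG-Low were seen in 0 of the 2 arms and in 6.68% of rows. The intervals leave room for a difference of up to 1.23-fold in miR-22-3p and 1.34-fold in miR-22-5p.

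The balance of the arms was read as 3p counts per 5p count, which depends on neither depth nor scaling. It was 124.7, 107.7 and 117.4 in NTG replicates 0, 1 and 2, then 113.9, 109.4 and 107.2 in TG-Low and 103.1, 96.2 and 109.4 in TG-High. All 3 groups overlapped, and the lowest ratio was in TG-High. Group means were 117 ± 8.52 in NTG, 110 ± 3.41 in TG-Low and 103 ± 6.61 in TG-High (SD, n = 3). Between the transgenic lines the log2 ratio of 5p over 3p differed by 0.10 ± 0.13 (SE, TG-High minus TG-Low). By limma over 142 hairpins with both arms measured this gave an adjusted p of 0.956, and the 95% interval ran from -0.19 to 0.39. That test called 0 of the 142 hairpins (0%), with 6 at an unadjusted p under 0.05. Against NTG the differences, given without a test, were 0.08 ± 0.13 in TG-Low and 0.18 ± 0.13 in TG-High. The 3p arm held most of the counts in every library.

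Among the 142 hairpins, 56 had more counts in the 3p arm, and miR-22 had rank 10 from the most 3p-rich, with a mean log2 ratio of -6.78 where the median was 0.83. The hairpins with a stronger 3p excess were led by miR-101a, miR-23b, miR-27b and miR-148a.

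**Figure D3:**
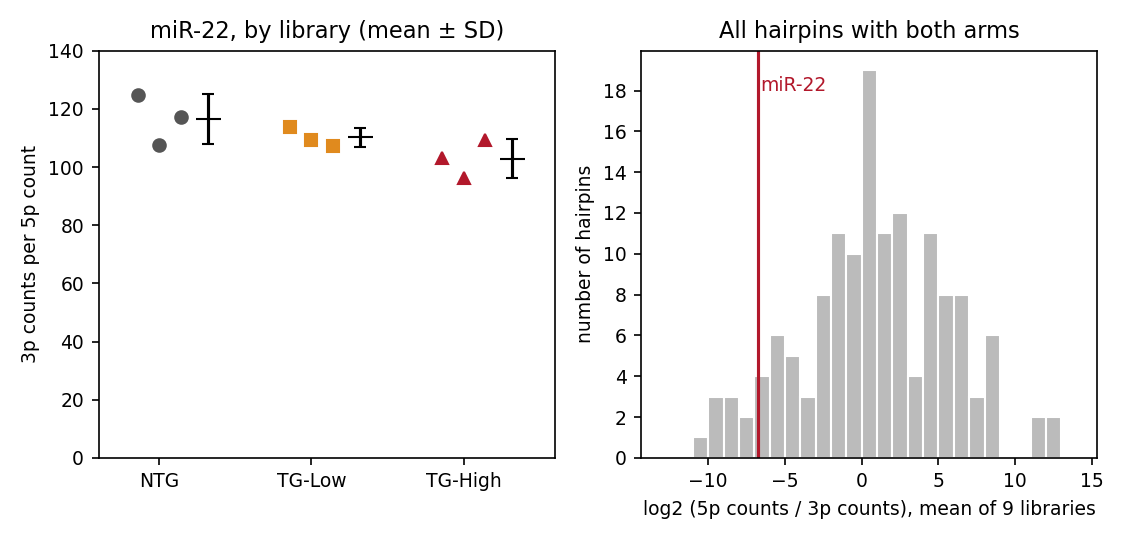
Left, 3p counts per 5p count of miR-22 in each library, with the mean ± SD (n = 3) beside the points. Right, mean log2 ratio of 5p to 3p counts over 9 libraries for 142 hairpins, with miR-22 marked at -6.78.

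Likeness to miR-22-3p was measured as the root mean square difference of log2 CPM over the 9 libraries, each row centred on its own NTG mean, among 149 other rows of at least 100 CPM. The closest row was miR-22-5p (0.13). Next came miR-23b-3p (0.14), let-7i-3p (0.15), miR-148a-3p (0.20), miR-3074-1-3p (0.22) and miR-3074-2-3p (0.25). These were found by their pattern, which includes the difference between TG and NTG, so their values are a description. miR-23b-3p, from a cluster with miR-27b and miR-24-1, was at 3876 ± 453 CPM in NTG, 5382 ± 865 in TG-Low and 6136 ± 463 in TG-High (SD, n = 3). let-7i-3p, the minor arm of a let-7 hairpin, was at 91.4 ± 6.57, 129 ± 10.1 and 128 ± 4.01 CPM. Like miR-22-3p, it stood at much the same level in both lines. miR-148a-3p was at 24088 ± 2340, 30894 ± 2959 and 40072 ± 4610 CPM, with every TG-High library above every TG-Low library.

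miR-3074-1-3p was at 142 ± 15.03 CPM in NTG, 234 ± 26.7 in TG-Low and 268 ± 28.1 in TG-High. Its hairpin (chr13:63301199-63301283, minus strand) overlaps that of miR-24-1 on the other strand and lies beside that of miR-23b (chr13:63300484-63300557). miR-3074-2-3p held counts equal to those of miR-24-2-5p in 9 of 9 libraries. Their hairpins also overlap on opposite strands, so these 2 rows cannot be told apart. The mature sequences of 3 of the 5 rows are shown with the seed in capitals, to set them beside the seeds of miR-22.
let-7i-3p: cUGCGCAAgcuacugccuugcu
miR-148a-3p: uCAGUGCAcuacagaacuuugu
miR-3074-2-3p: uGUUUCAGcucaguaggcac
Their seeds differ from those of both miR-22 arms.

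**Figure D4:**
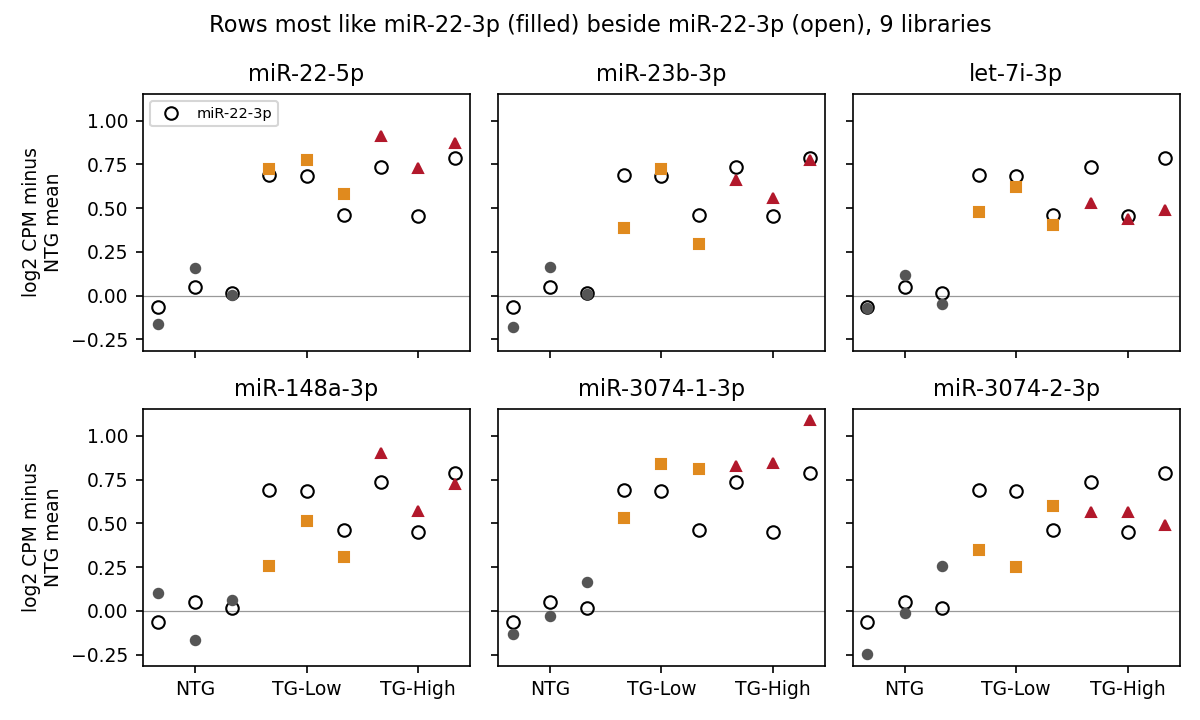
Log2 CPM minus the NTG mean in each of the 9 libraries (replicates 0, 1 and 2 from left to right in each group), for miR-22-3p (open circles) and for the row named above each panel (filled). miR-22-5p has the smallest root mean square difference from miR-22-3p (0.13) and miR-3074-2-3p the largest of the rows shown (0.25).

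No change was detected in the measured hairpins nearest to miR-22 on chromosome 11. Within 1 Mb of miR-22 lie miR-132 and miR-212, a pair of neuronal and hypertrophy-related miRNAs 290 kb away, of which 4 rows were measured. In TG against NTG their log2 fold changes ran from -0.40 (miR-212-5p) to -0.12 (miR-132-5p), with edgeR adjusted p values from 0.112 to 0.683. edgeR and DESeq2 each called 0 of the 4, and 1 (miR-212-5p) was at an unadjusted p under 0.05. In this comparison edgeR called 8.64% of all 509 rows, 4.72% higher and 3.93% lower. In TG-High against TG-Low they ran from 0.04 to 0.24 (edgeR adjusted p from 0.745 to 0.992), also with 0 called by either tool and 0 at an unadjusted p under 0.05. miR-3971 and miR-6926, the other hairpins in that window, were not analysed here.

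Other miRNAs typical of heart muscle were counted beside miR-22, among them near-equal rows of miR-486a and miR-486b. Of 28 tested rows (miR-1a, miR-133, miR-208, miR-499, miR-378a, miR-486 and the miR-30 family), edgeR called 0 higher and 1 lower in TG against NTG, with 3 higher and 6 lower at an unadjusted p under 0.05. DESeq2 also called 0 higher and 1 lower. Over all rows 4.72% were called higher and 3.93% lower, so 0 and 1 of 28 are near the background. The row that fell was miR-30a-3p (log2 fold change -0.43 ± 0.11 (SE), edgeR adjusted p = 0.0388). That call was lost without NTG replicate 0 or 1 and without TG-High replicate 0 or 1 (edgeR adjusted p up to 0.151 with 1 library left out). The list's median was -0.12. miR-378a-3p, nearest to miR-22-3p in level, had 0.28 ± 0.12 (edgeR adjusted p = 0.133). In TG-Low against NTG, where 1.57% of all rows were called, edgeR and DESeq2 each called 0 of the 28, and the median was -0.01. At an unadjusted p under 0.05, 4 were higher (miR-1a-3p, miR-208a-3p and both arms of miR-378a) and 1 was lower (miR-30a-3p). In TG-High against NTG, where 18.3% of all rows were called (8.84% higher, 9.43% lower), 0 of the 28 rose and 3 fell, and the median was -0.21. At an unadjusted p under 0.05, 1 was higher and 8 were lower, and DESeq2 called 0 higher and 4 lower. Those that fell by edgeR's test were miR-499-5p (-0.92, adjusted p = 0.00161), miR-30d-5p (-0.63, adjusted p = 0.0492) and miR-30a-3p (-0.45, adjusted p = 0.0394). miR-499-5p passed with each of the 6 libraries left out in turn, whereas miR-30d-5p passed without NTG replicate 1 alone and miR-30a-3p without NTG replicate 2 alone (edgeR adjusted p up to 0.192 and 0.148). In TG-High against TG-Low, 1.38% of all rows were called. There miR-499-5p was the 1 called row of the 28 and fell by 0.65 on the log2 scale (edgeR adjusted p = 0.0492), while miR-22-3p had 0.05. The call of miR-499-5p between the lines held in 2 of 6 such refits and was lost without TG-Low replicate 0 or 2 and without TG-High replicate 0 or 1 (edgeR adjusted p up to 0.270). The difference between these miRNAs was not tested.

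Of 29 tested rows of miRNAs described as promoting or rising with growth of heart muscle, without miR-22, edgeR called 5 higher and 2 lower in TG against NTG. Over all rows 4.72% were called higher there and 3.93% lower. The called rows are not independent. miR-23b-3p, miR-27b-5p and miR-24-1-5p come from 1 cluster, and both rows that fell are arms of miR-221. At an unadjusted p under 0.05, 7 of the 29 were higher and 7 lower, and DESeq2 called 6 higher and 3 lower. The list's median in TG against NTG was 0.07, and miR-24-1-5p (0.88, edgeR adjusted p = 0.00379) passed with each of the 9 libraries left out in turn. The miR-24-1 hairpin overlaps that of miR-3074-1 on the other strand. miR-24-2-5p held counts equal to those of miR-3074-2-3p in 9 of 9 libraries and cannot be told apart from it. The other 4 that rose (miR-27b-5p, miR-24-2-5p, miR-23b-3p and miR-21a-5p) passed in 2 to 7 of 9 such refits, each failing without NTG replicate 0 and without NTG replicate 2, and both arms of miR-221, which fell, passed in 8 of 9, failing without NTG replicate 0. edgeR called 1 higher and 0 lower in TG-Low against NTG, where 1.57% of all rows were called (1.38% higher, 0.196% lower). At an unadjusted p under 0.05, 8 were higher and 3 lower, and DESeq2 called 2 in each direction. The row that rose was miR-24-1-5p (0.79, edgeR adjusted p = 0.0226), and the list's median was 0.11. That call was lost without NTG replicate 0 or 1 and without TG-Low replicate 1 (edgeR adjusted p up to 0.0845). In TG-High against NTG 7 rose and 4 fell, where 8.84% of all rows were called higher and 9.43% lower, with a median of 0.00. At an unadjusted p under 0.05, 11 were higher and 6 lower, and DESeq2 called 7 higher and 4 lower. Those that rose by edgeR's test included miR-21a-5p (0.99, adjusted p = 0.000724), miR-23b-3p (0.66, adjusted p = 0.00874) and miR-214-5p, also on the fibroblast marker list (0.74, adjusted p = 0.0118). Among those that fell were the vascular pair from 1 cluster, miR-221-3p (-1.08, edgeR adjusted p = 0.00122) with miR-222-3p (-0.61, edgeR adjusted p = 0.0311). With 1 library left out, miR-21a-5p, miR-23b-3p and miR-221-3p passed in 6 of 6 refits, miR-222-3p in 0 of 6 and miR-214-5p in 3 of 6, failing without NTG replicate 0 and without TG-High replicate 0 or 1. Between the lines, where 1.38% of all rows were called, miR-21a-5p rose by 0.66 on the log2 scale (edgeR adjusted p = 0.0206) and miR-499-5p fell. The call of miR-21a-5p was lost without TG-Low replicate 1 and without TG-High replicate 0 or 1 (edgeR adjusted p up to 0.0941). No such difference was detected for either arm of miR-22, and the contrast between these miRNAs was not tested.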

How the data were processed

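Total RNA was extracted with Trizol, and the labels' protocols name a TruSeq RNA kit. Per the submitters' processing notes, the build was mm10 (GRCm38) and the tools were DESeq2 1.18.1, Novoalign, SAMtools, Trim Galore 0.4.0 and bcl2fastq 1.8.4. Neither the counting tool nor the miRNA annotation was given in the sources used here. Per the file headers, the authors deposited raw read counts per mature miRNA. The authors also deposited a mean normalized signal, a log2 fold change with its error, a Wald score and p-values for TG against NTG. Of these, only the log2 fold changes and their errors were used here.

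Counts were fitted with edgeR 4.0.16 (quasi-likelihood test, TMM, filterByExpr with a minimum count of 10, limma 3.58.1, R 4.3.3), which kept 509 of 621 rows. TG against NTG was fitted with 2 groups and the rest with 3, on all 9 libraries, and p-values were Benjamini-Hochberg adjusted over all rows (threshold 0.05). Arm ratios used log2 of counts plus 0.5, limma, and hairpins whose arms both had a mean count of at least 10. Lists were counted, not tested. The members and lists were chosen with earlier results of these data known. Named miRNAs are the members, rows next to them in level or pattern, neighbours, markers and list members past the threshold. miR-101a and miR-27b were named after their values were seen. Replicates differed beyond sampling noise (ratio of chi-square to its degrees of freedom 40.2 to 433), and each counted as 1 sample. Alternatives were DESeq2 1.42.0 (size factors, Wald test), no TMM, scaling without the 5 most abundant rows, no filter, the replicate block and each library left out. The fits were tested on simulated data. In TG-High against TG-Low, edgeR called 39.5% of simulated 1.5-fold changes, 81.1% of 2-fold and 98.4% of 4-fold changes. Changes of 1.5-fold were thus often missed. Of the 621 rows, 544 matched a RefSeq mature sequence by name.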

Additional observations from a re-analysis of the deposited data

How the results depend on the processing

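All 102 refits of the log2 fold changes of both arms in the 4 contrasts stayed positive. miR-22 was chosen for its higher counts than in NTG, so that sign is no separate evidence for the contrasts with NTG. Between the lines no difference was detected, so no direction is read from the sign there. Without 1 library at a time, TG against NTG ranged from 0.59 to 0.68 for miR-22-3p and from 0.68 to 0.83 for miR-22-5p. TG-Low against NTG ranged from 0.58 to 0.66 and from 0.62 to 0.77, and TG-High against NTG from 0.62 to 0.72 and from 0.74 to 0.89. TG-High against TG-Low ranged from 0.03 to 0.11 and from 0.14 to 0.18, with edgeR adjusted p values of at least 0.742. Under the other settings it ranged from 0.05 to 0.12 and from 0.15 to 0.22 (adjusted p of at least 0.724). The arm ratio between the lines ranged from 0.05 to 0.15. The counts of 17 and 15 ratios out of 20 ranged from 17 to 18 and from 15 to 19, a check chosen after seeing the data, as were the refits of list members and marker rows without 1 library. With a minimum of 10 CPM in place of 100, 2 of the 5 rows most like miR-22-3p were kept.

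Deviations of same-numbered libraries from their group means had correlations from -0.17 to 0.23, and the numbers were not treated as pairs. With 3 libraries in each group, such correlations cannot exclude pairing. With the replicate number as a block, miR-22-3p had 0.64 in TG against NTG and 0.05 between the lines (edgeR adjusted p = 0.944), and miR-22-5p had 0.77 and 0.15 (adjusted p = 0.818). The arm ratio had 0.10 with the block, and rows called between the lines went from 7 to 6.

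Background counts depend more on the libraries. In TG against NTG 44 rows were called, 75 by DESeq2, and from 14 (without NTG replicate 0) to 108 (without TG-Low replicate 2), with 16 without NTG replicate 2, 24 without TG-High replicate 1 and 26 without TG-High replicate 0. In TG-Low against NTG 8 were called, 29 by DESeq2, 21 with no filter, 0 without TG-Low replicate 1 and 18 without TG-Low replicate 2. In TG-High against NTG 93 were called, and 54, 52, 37 and 44 without NTG replicate 0, NTG replicate 2, TG-High replicate 0 and TG-High replicate 1. Between the lines 7 were called, 12 by DESeq2, 25 with no filter, 4 without TMM, and 0, 2 and 4 without TG-High replicates 0, 1 and 2. The causes were not tested. The lowest count of miR-22 was 2696, and the part of depth in its values was not tested.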
